A study of Mus musculus with 4 samples.

Results

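The 9 genes studied here belong to lipoprotein particles, their processing and their uptake, and were followed across the cell classes of the aged mouse hypothalamus: the apolipoproteins Apoe and Clu, the lipase Lpl, the lipid exporter Abca1, and the receptors Vldlr, Lrp8, Lrp1, Lrp1b and Sorl1. They were chosen by symbol, and each of the 9 symbols matched 1 of the 32285 gene rows. The measurement was single-nucleus RNA sequencing of frozen whole hypothalamus from mice aged about 18 months, in 4 deposited count matrices. Of these, 2 were labelled transplanted, for mice given stem cells of hypothalamic type that had been made from human pluripotent cells, and 2 were labelled control. The labels give no strain, sex or genotype, and the titles of the first matrix of each group join 2 animal codes, so that nuclei of several animals may have been pooled.

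The transplanted-labelled and control-labelled matrices held the same nuclei. The first transplanted-labelled matrix had 4020 nuclei and shared 3997 barcodes with the 4008 nuclei of the first control-labelled one, and the second had 2151 nuclei and shared 2144 with 2150. Any other pair of matrices shared 4 barcodes. The median correlation of the profiles of a shared barcode was 0.890 and 0.879 in the 2 pairs, against 0.350 and 0.290 for barcodes paired at random, over 400 barcodes each. Each pair was therefore counted as 1 library, called library A (first pair) and library B (second pair), and n is 2 libraries throughout. No test was made between the labels, and the values by class come from the control-labelled matrices, with 8779880 unique molecular identifiers (UMIs, each standing for 1 captured RNA molecule) in library A and 4924563 in library B. The median was 1813 and 2049 UMIs per nucleus.

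As background, the brain makes its own lipoproteins, since those of the blood largely do not cross into it. Astrocytes secrete apolipoprotein E and clusterin, ABCA1 loads these proteins with cholesterol and phospholipid, and receptors of the LDL receptor family take up the particles or, in the case of VLDLR and LRP8 (also called ApoER2), transmit the signal of Reelin. In the hypothalamus, tanycytes are glia that line the third ventricle and contact its fluid. SORL1 is a sorting receptor that carries LDL receptor repeats and moves cargo between endosomes and the Golgi.

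Nuclei were clustered without these 9 genes or the other genes of lipoprotein lists, and clusters were named from separate markers, so that each class name means nuclei like that type. In libraries A and B the classes held 321 and 200 astrocytes, 113 and 44 tanycytes, 66 and 47 microglia, 370 and 285 oligodendrocytes, 135 and 72 oligodendrocyte precursors, and 2963 and 1460 neurons. Levels are CPM (UMIs of the gene per 1000000 UMIs of the class), and where a pair of values is given for a class, library A comes before library B. Median depth was 765 and 800.5 UMIs per astrocyte nucleus, 667.5 and 685 per microglial nucleus, and 2252 and 2609 per neuronal nucleus. The tanycyte cluster had 10 of 12 tanycyte markers more than 4-fold above the rest, together with 5 of 10 ependymal markers, so that ependymal nuclei may be among them. A cluster of 35 and 17 nuclei carried markers of oligodendrocytes and neurons together and was left unnamed.

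Neuronal RNA was found in the glial classes, and the summed neuron markers were higher in library A in each of them. The 12 neuron markers summed to 6499 CPM in astrocytes of library A and 675 in library B, to 6962 and 3699 in tanycytes, to 7544 and 767 in microglia, to 1083 and 780 in oligodendrocytes, and to 2258 and 1293 in precursors. In neurons they summed to 28597 and 19193 CPM. Much of the difference was Snhg11 alone, with 4084 and 97.2 CPM in astrocytes, 4152 and 1165 in tanycytes, and 4963 and 92.1 in microglia. It had 576 and 237 in oligodendrocytes, 1145 and 356 in precursors, and 19065 and 8467 in neurons. Not every marker was higher in library A: Meg3 had 2051 and 2275 CPM in tanycytes and 171 and 186 in oligodendrocytes. The part of neuronal RNA in the members' glial levels was not tested.

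Astrocytes had 5 members raised, against 4 in precursors and 1 or 2 in each of the other classes. Each class was set against the average of the other 5 with edgeR's quasi-likelihood test, at a Benjamini-Hochberg adjusted p of 0.05 over all 6061 genes tested and all contrasts. Of the 9 members, 8 had enough counts to be tested, and Lpl did not. In astrocytes 5 members were higher (Apoe, Clu, Abca1, Lrp1 and Sorl1), where 18.7% of all genes tested were higher, and 0 were lower (0 also at an unadjusted p under 0.05 and by DESeq2), where 4.74% of all genes were. The median log2 difference over the 8 members was 1.44 in astrocytes, against 0.11 over all genes. In precursors 4 were higher (Apoe, Vldlr, Lrp1 and Lrp1b, with 16.7% of all genes) and 1, Sorl1, was lower (3.66% of all genes). Clu in precursors was just short of a call (log2 difference 0.83, adjusted p = 0.0584).

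The remaining classes each had members on both sides. In tanycytes Apoe and Abca1 were higher (13% of all genes) and Lrp1b was lower (4.52%). In microglia Abca1 was higher (12.6%) and Apoe, Clu and Lrp1b were lower (9.75%). In oligodendrocytes Vldlr and Lrp1b were higher (18.5%) and Clu, Lrp1 and Lrp8 were lower (15.6%). Vldlr had enough counts to be tested only through its oligodendrocyte levels, so its call in that class is not independent of the count filter. That call was kept under all 11 alternatives, a run with no low-count filter among them. In neurons Vldlr and Lrp8 were higher (27.1%) and Apoe and Abca1 were lower (13.2%). The Vldlr calls compare with an average that includes tanycytes and microglia at 0 UMIs, so their size is not fixed by the data. Values with 1 library alone, here and below, are differences of log2 CPM with a small count added, not refitted coefficients. They are thus not the same statistic as the value from both libraries. Where a library holds 0 UMIs in a class, the added count sets their size. With library A and library B alone, the neuron value of 3.43 was 1.67 and 2.02. That of precursors, 4.03, was 2.82 and 1.56, and that of oligodendrocytes, 5.63, was 3.60 and 4.35. Mean Vldlr was lower in neurons (35.5 CPM) than in oligodendrocytes (122) and precursors (44.2). Over all 6 contrasts 16 of 48 pairs of member and class were called higher and 10 lower, where 17.7% and 8.58% of all pairs of gene and class were.

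**Figure D1:**
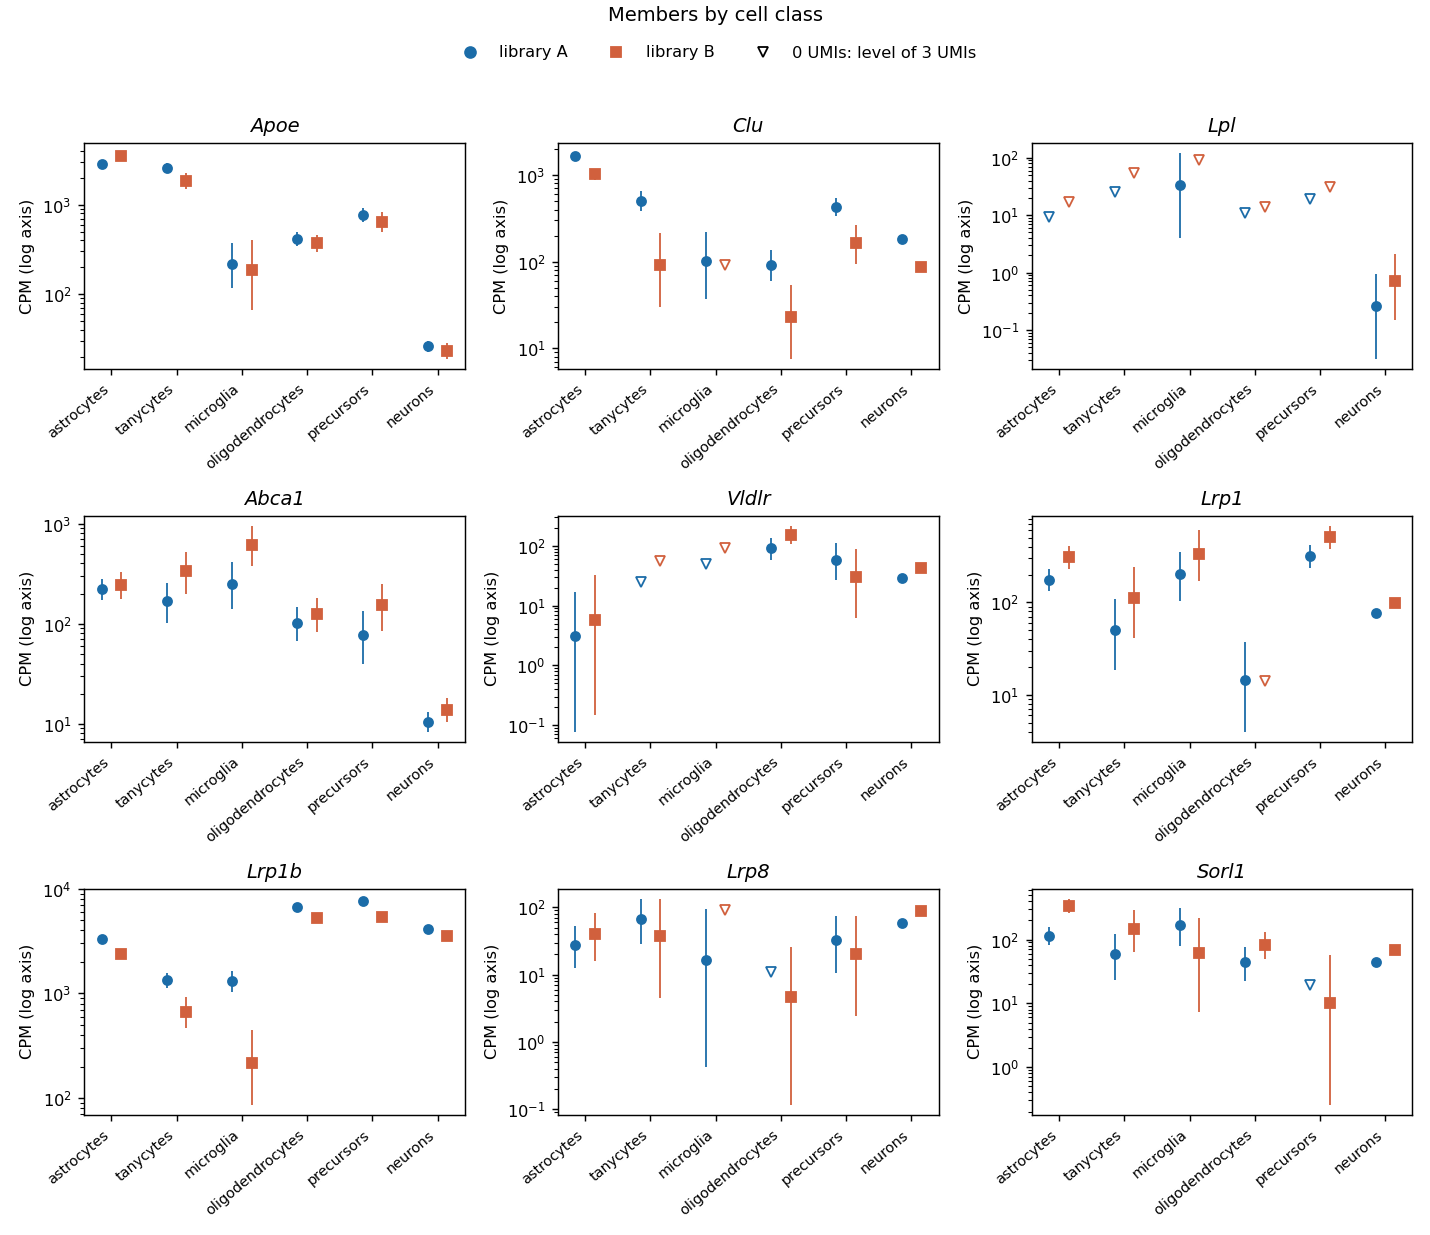
Level of each member (CPM, log axis) in 6 cell classes; circles are library A, squares library B, bars 95% Poisson intervals (counting error only), and open triangles mark a class with 0 UMIs at the level that 3 UMIs would give. Apoe is highest in astrocytes (2875 and 3472 CPM) and lowest in neurons (26.4 and 23.4 CPM), while Vldlr has 0 UMIs in tanycytes and microglia.

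**Figure D2:**
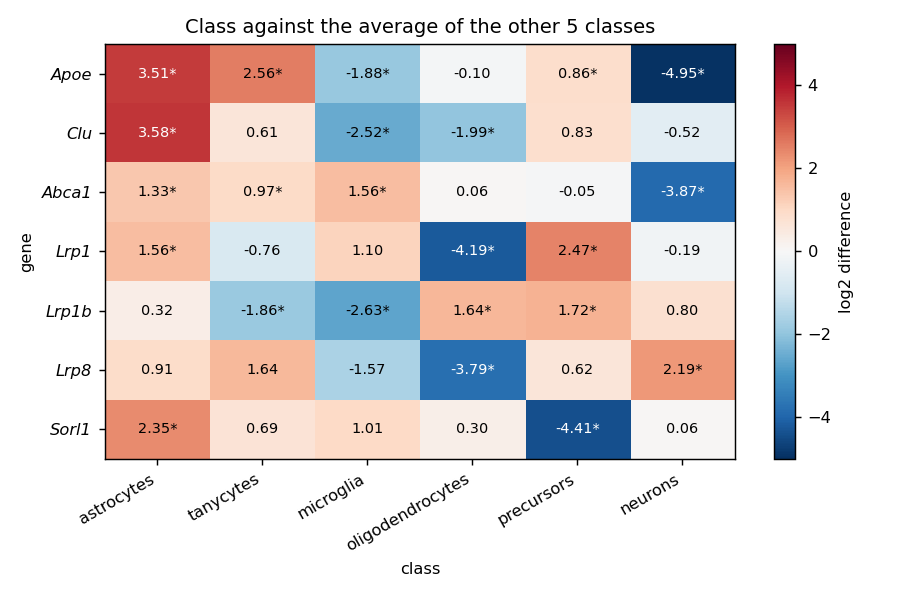
Log2 difference of each class from the average of the other 5, for 7 members; an asterisk marks an adjusted p under 0.05. Vldlr is not drawn because 2 classes hold 0 UMIs, and Lpl was not tested. The astrocyte column is positive for all 7 genes and called for 5 of them.

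The promoters of members that were higher in astrocytes are shown because those genes were all higher in that class. RefSeq's table for GRCm38.p6 held 6 of the 9 members, among them 4 of the 5 that were higher in astrocytes. Each run gives 250 bases before to 50 bases after the outermost start site, 5′ to 3′. Capitals mark matches on either strand to an E-box (CACGTG) or a GC box (GGGCGG), which do not overlap here.
Apoe, chr7:19699139-19699438, minus strand: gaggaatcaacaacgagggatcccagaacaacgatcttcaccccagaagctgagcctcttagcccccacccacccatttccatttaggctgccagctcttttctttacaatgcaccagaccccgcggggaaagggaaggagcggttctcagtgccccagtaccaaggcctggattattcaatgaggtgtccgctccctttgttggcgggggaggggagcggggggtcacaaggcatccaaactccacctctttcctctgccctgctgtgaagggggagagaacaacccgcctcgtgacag
Abca1, chr4:53159846-53160145, minus strand: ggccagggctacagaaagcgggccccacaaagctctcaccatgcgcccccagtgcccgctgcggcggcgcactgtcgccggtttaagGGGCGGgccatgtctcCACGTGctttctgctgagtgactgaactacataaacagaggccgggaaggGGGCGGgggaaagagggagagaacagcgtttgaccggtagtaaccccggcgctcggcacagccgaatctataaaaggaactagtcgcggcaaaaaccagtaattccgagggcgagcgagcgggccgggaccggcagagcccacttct
Lrp1, chr10:127621099-127621398, minus strand: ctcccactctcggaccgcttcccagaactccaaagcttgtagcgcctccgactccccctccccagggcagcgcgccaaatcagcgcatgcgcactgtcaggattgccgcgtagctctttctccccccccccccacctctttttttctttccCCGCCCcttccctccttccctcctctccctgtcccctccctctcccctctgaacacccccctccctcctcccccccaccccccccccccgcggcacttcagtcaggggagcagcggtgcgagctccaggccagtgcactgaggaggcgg
Sorl1, chr9:42124248-42124547, minus strand: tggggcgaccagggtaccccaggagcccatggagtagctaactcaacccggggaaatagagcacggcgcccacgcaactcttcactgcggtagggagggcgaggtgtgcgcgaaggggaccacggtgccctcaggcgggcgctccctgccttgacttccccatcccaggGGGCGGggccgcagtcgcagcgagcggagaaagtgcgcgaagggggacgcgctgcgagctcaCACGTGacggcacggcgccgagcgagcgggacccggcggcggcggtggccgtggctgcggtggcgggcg

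An E-box was found in the Abca1 and Sorl1 windows, while 7.24% of the 27025 promoters of that table held one. GC boxes were found in the Abca1, Lrp1 and Sorl1 windows, against 35.9% of all promoters. The Apoe window held neither. A match describes letters in the window and not binding.

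Apoe encodes the main apolipoprotein made in the brain. It had 2875 and 3472 CPM in astrocytes of libraries A and B, 2593 and 1849 in tanycytes, 772 and 641 in precursors, 416 and 371 in oligodendrocytes, 218 and 184 in microglia, and 26.4 and 23.4 in neurons. The ranges of these 6 classes did not overlap, and the astrocyte mean was 3174 ± 423 CPM (SD, n = 2). Apoe in astrocytes exceeded the other classes' average by 3.51 on the log2 scale (SE 0.26, adjusted p = 4.11e-13), and in tanycytes by 2.56 (SE 0.28, adjusted p = 3.14e-09). Each SE, here and below, is the size of the log2 difference divided by the square root of the test's F statistic, not a separate estimate. In neurons it was lower, with a log2 difference of -4.95 (SE 0.42, adjusted p = 1.75e-11).

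Astrocytes and tanycytes were not separated for Apoe, with a log2 difference of 0.79 (SE 0.39, adjusted p = 0.132). Tanycytes exceeded precursors (1.41, SE 0.40, adjusted p = 0.0066), oligodendrocytes exceeded microglia (1.48, SE 0.51, adjusted p = 0.0252) and microglia exceeded neurons (2.56, SE 0.56, adjusted p = 0.000482), while precursors and oligodendrocytes were not separated (adjusted p = 0.146). The call of oligodendrocytes over microglia was lost under 4 of 13 alternatives, library totals in place of TMM factors among them, and that of precursors over the other classes' average (0.86, SE 0.31, adjusted p = 0.0342) under 3.

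Counting nuclei gave the same picture for Apoe. With every nucleus thinned to 500 UMIs, 79.8% and 81% of astrocytes in libraries A and B held an Apoe UMI, 61.9% and 59.1% of tanycytes, and 1.52% and 1.3% of neurons. Unthinned, the neuronal share was 6.28% and 5.96%. Nuclei of astrocytes held 58.3% of the Apoe UMIs of all classes and neurons, by far the most numerous class, 11.4%. Markers of astrocytes stood in tanycytes at 18.3% of their astrocyte sum and Apoe at 70% of its astrocyte mean, in precursors at 18.4% beside 22.3%, in oligodendrocytes at 2.13% beside 12.4%, in microglia at 1.81% beside 6.33%, and in neurons at 2.34% beside 0.785%.

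**Figure D3:**
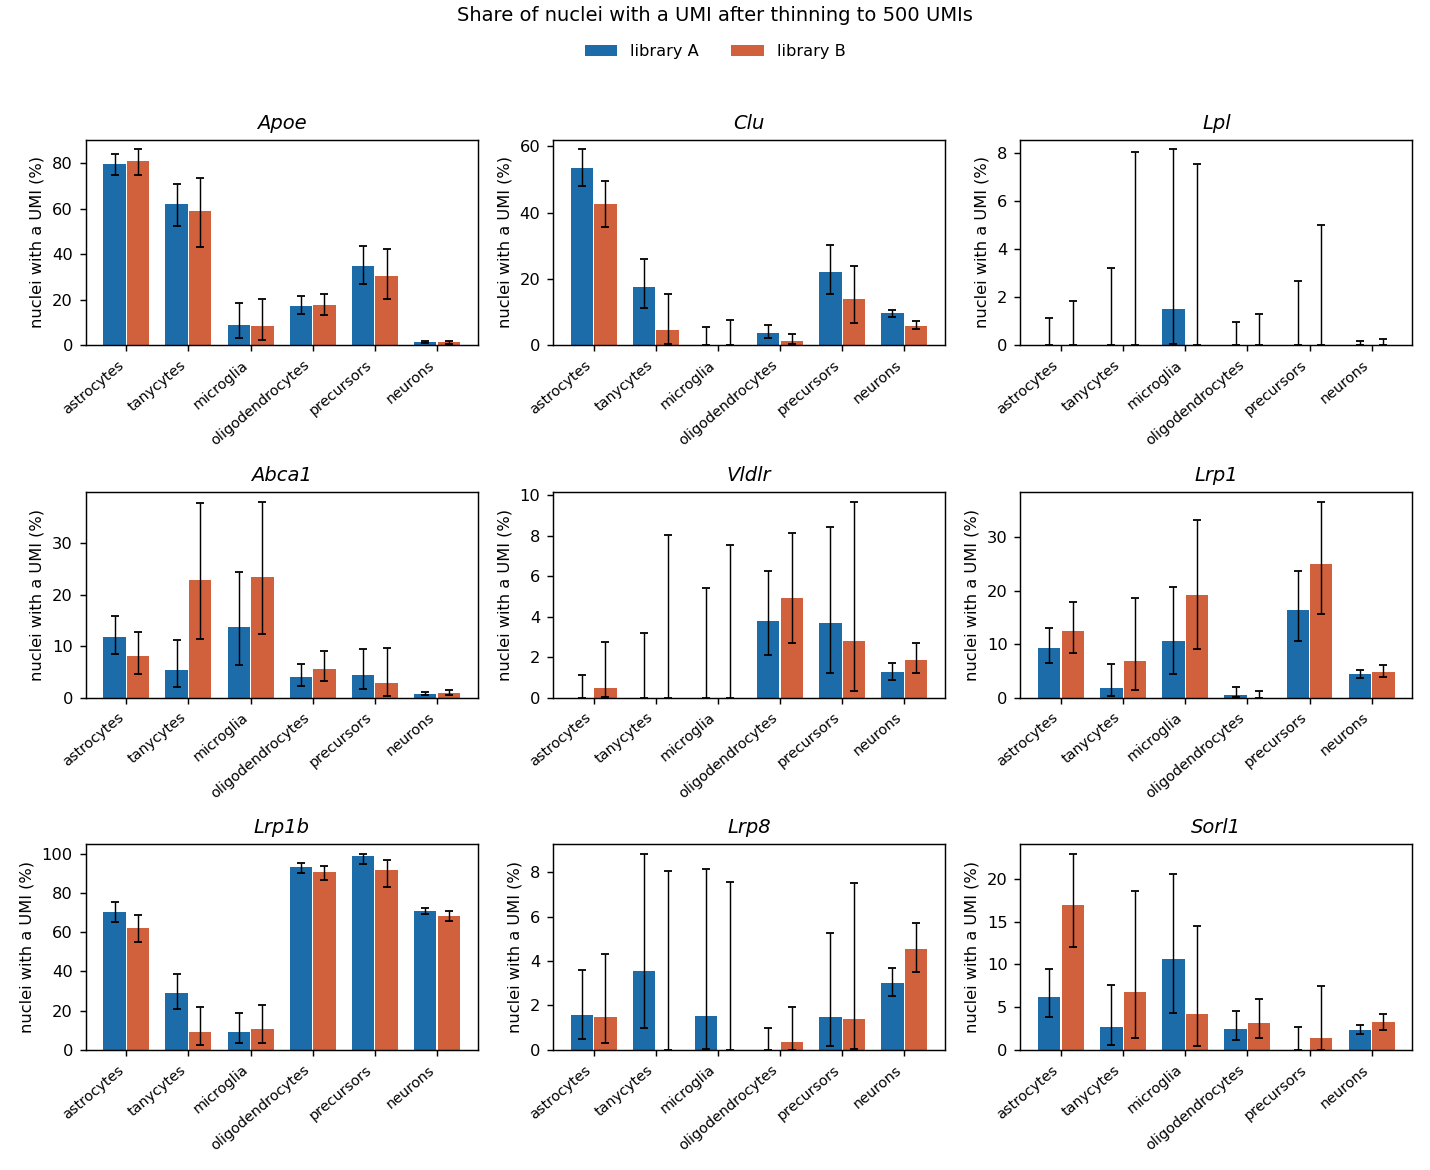
Share of nuclei with at least 1 UMI of each member after thinning every nucleus to 500 UMIs, by class; blue bars are library A, orange bars library B, and black bars are exact 95% binomial intervals (counting error only). Lrp1b is found in over 90% of oligodendrocytes and precursors in both libraries, and Apoe in 79.8% and 81% of astrocytes.

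Clu encodes clusterin, an apolipoprotein that also acts as an extracellular chaperone. It had 1651 and 1024 CPM in astrocytes, 509 and 92.5 in tanycytes, 431 and 163 in precursors, 182 and 87.6 in neurons, 91.2 and 23.2 in oligodendrocytes, and 101 and 0 in microglia. The astrocyte values lay above those of every other class, while the other classes overlapped. In astrocytes Clu exceeded the other classes' average by 3.58 on the log2 scale (SE 0.24, adjusted p = 3.70e-14), and its value was 3.12 with library A alone and 4.90 with library B alone. Astrocytes exceeded tanycytes, the next class, by 2.47 (SE 0.37, adjusted p = 1.67e-06), with 1.94 in library A alone and 3.71 in library B alone.

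Clu was higher in library A than in library B in all 6 classes, as the summed neuron markers were. Neurons held 66.2% of the Clu UMIs of all classes, and 9.69% and 5.96% of neurons thinned to 500 UMIs held one, against 53.6% and 42.5% of astrocytes. Clu was lower in oligodendrocytes (-1.99, SE 0.40, adjusted p = 0.000184) and microglia (-2.52, SE 0.58, adjusted p = 0.000944). The oligodendrocyte call was lost with nuclei thinned to 500 UMIs (log2 difference -0.83) and with at least 1000 UMIs per nucleus, and the microglial call was lost with no replicate block and at 1000 UMIs. The microglial value rests on 6 UMIs, all in library A, and was -2.12 with library A alone and -6.16 with library B alone.

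**Figure D4:**
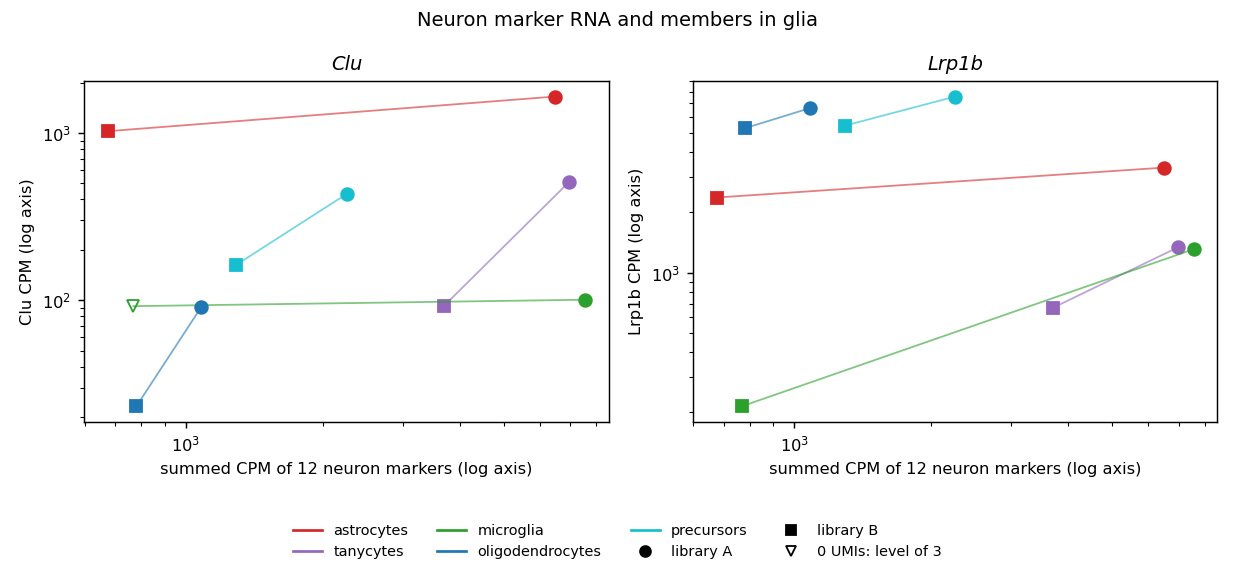
Level of Clu (left) and Lrp1b (right) in the 5 glial classes against the summed level of 12 neuron markers in the same nuclei (both in CPM, log axes); circles are library A, squares library B, and a line joins the libraries of 1 class. Both genes and the summed neuron markers, of which Snhg11 is the largest in library A, are higher in library A in each glial class. The open triangle is Clu in microglia of library B, drawn at the level of 3 UMIs because 0 were found.

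Lpl, the lipase that frees fatty acids from lipoprotein triglycerides, was close to absent from these nuclei. It had 7 UMIs in all, of which 2 were in microglia of library A (33.5 CPM) and 5 in neurons (0.259 and 0.716 CPM in libraries A and B). Astrocytes, tanycytes, oligodendrocytes and precursors held 0, which allows a level of up to 5.96, 17.2, 6.13 and 11.8 CPM over both libraries at 3 UMIs. The neuron markers summed to 7544 CPM in those microglia of library A and to 767 in library B. No class difference was detectable for Lpl at this depth.

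Abca1 exports cholesterol and phospholipid to lipid-poor apolipoproteins. It had 251 and 614 CPM in microglia, 167 and 333 in tanycytes, 222 and 246 in astrocytes, 77.2 and 153 in precursors, 102 and 125 in oligodendrocytes, and 10.5 and 13.9 in neurons. The neuronal values lay below those of every glial class, and tanycytes overlapped both microglia and astrocytes. Neurons fell below the other classes' average by a log2 difference of -3.87 (SE 0.21, adjusted p = 2.12e-16). Microglia were higher by 1.56 (SE 0.32, adjusted p = 0.000269), astrocytes by 1.33 (SE 0.21, adjusted p = 5.16e-06) and tanycytes by 0.97 (SE 0.30, adjusted p = 0.0144).

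Microglia, tanycytes and astrocytes were not separated for Abca1 (adjusted p = 0.379 for microglia over tanycytes and 0.538 for tanycytes over astrocytes, where the fitted sign was the reverse of the CPM order). Astrocytes exceeded precursors (1.15, SE 0.33, adjusted p = 0.00779), and oligodendrocytes exceeded neurons (3.28, SE 0.31, adjusted p = 3.52e-10). The tanycyte call was lost under 3 of 13 alternatives. The microglial call was kept under 12 of 13 and lost with at least 1000 UMIs per nucleus, where the log2 difference was 0.026. The microglial value rests on 35 UMIs from 113 nuclei.

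Vldlr and Lrp8 encode the Reelin receptors of the family, and in pairs of classes each was higher in neurons than in 3 of the 5 glial classes. For Vldlr these were astrocytes, tanycytes and microglia (the microglial call, adjusted p = 0.0401, was lost under 4 of 11 alternatives), and for Lrp8 they were astrocytes (adjusted p = 0.0327, lost under 2 of 11), microglia (adjusted p = 0.0181, lost under 3 of 11) and oligodendrocytes (adjusted p = 3.04e-06). As microglia and oligodendrocytes against neurons, the Lrp8 values were -2.01 and -5.10 with library A alone and -5.60 and -3.69 with library B alone. Vldlr had 91.2 and 153 CPM in oligodendrocytes, 57.9 and 30.5 in precursors, 29 and 42 in neurons, and 3.05 and 5.72 in astrocytes. It had 0 UMIs in tanycytes and microglia, which allows up to 17.2 and 32.5 CPM over both libraries. The oligodendrocyte mean was 7.09-fold that tanycyte level and 3.76-fold that microglial level, and the neuron mean was 2.06-fold and 1.09-fold. These ratios leave out the counting error and library spread of the higher class, so they are not lower limits. Neurons of library A, at 29 CPM, lay below the 32.5 CPM allowed in microglia.

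Among the classes with Vldlr UMIs, oligodendrocytes exceeded neurons by 1.84 on the log2 scale (adjusted p = 6.65e-06), and neurons exceeded astrocytes by 2.99 (SE 0.76, adjusted p = 0.00247). The astrocyte level rests on 2 UMIs, a ratio of 3.36% to oligodendrocytes (exact 95% interval 0.397% to 12.7%). Oligodendrocytes also exceeded precursors (1.34, SE 0.48, adjusted p = 0.0329), a call lost under 6 of 11 alternatives, with 0.65 from library A alone and 2.33 from library B alone, and precursors and neurons were not separated (adjusted p = 0.522). In shares of nuclei thinned to 500 UMIs, Vldlr was found in 3.78% and 4.91% of oligodendrocytes and in 1.25% and 1.85% of neurons. Neurons held 84.7% of all Vldlr UMIs.

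Lrp8 had 58.6 and 86.9 CPM in neurons, 66.7 and 37 in tanycytes, 27.4 and 40 in astrocytes, 32.2 and 20.4 in precursors, 16.8 and 0 in microglia, and 0 and 4.64 in oligodendrocytes. Neurons exceeded the other classes' average by 2.19 (SE 0.33, adjusted p = 2.78e-06), and held 95.9% of the Lrp8 UMIs. In tanycytes, precursors and microglia Lrp8 was higher in library A, as were the neuron markers, which summed to 6962 and 3699, to 2258 and 1293, and to 7544 and 767 CPM in those classes. Marker sums were also higher in library A in astrocytes (6499 and 675 CPM) and oligodendrocytes (1083 and 780). There, as in neurons, Lrp8 was lower in library A. None of the neighbours in this order was separated from the next, with adjusted p between 0.385 and 0.852. Oligodendrocytes were lower (-3.79, SE 1.14, adjusted p = 0.0109) on the strength of 1 UMI, a ratio of 2.98% to neurons (exact 95% interval 0.0753% to 16.6%). The call was lost when the mixed cluster of oligodendrocyte and neuron markers was counted with them, and the value was -4.32 with library A alone and -1.70 with library B alone.

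Lrp1, a large endocytic receptor that clears apolipoprotein E particles, differed between the stages of the oligodendrocyte lineage. It had 315 and 509 CPM in precursors, 201 and 338 in microglia, 177 and 309 in astrocytes, 77.5 and 98.4 in neurons, 50 and 111 in tanycytes, and 14.6 and 0 in oligodendrocytes. Precursors lay above oligodendrocytes in both libraries. Precursors exceeded the other classes' average by 2.47 (SE 0.27, adjusted p = 6.01e-09) and oligodendrocytes were lower, at -4.19 (SE 0.52, adjusted p = 6.37e-08). Set against each other, oligodendrocytes were below precursors by a log2 difference of -5.55 (adjusted p = 1.39e-10), a value that rests on 4 oligodendrocyte UMIs, all in library A. The difference of log2 CPM was -4.27 with library A alone and -8.18 with library B alone. The size of the latter is set by the count added to 0 UMIs.

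Astrocytes also exceeded the other classes' average for Lrp1 (1.56, SE 0.27, adjusted p = 1.82e-05), and exceeded neurons by 1.46 (SE 0.24, adjusted p = 1.15e-05). The astrocyte value was 1.21 with library A alone and 2.17 with library B alone, and that of oligodendrocytes was -2.94 and -6.82. Microglia and astrocytes were not separated (adjusted p = 0.54, with the fitted sign the reverse of the CPM order), nor were neurons and tanycytes (adjusted p = 0.519). Neurons held 80.2% of the Lrp1 UMIs, and 4.42% and 4.86% of thinned neurons held one, against 16.3% and 25% of precursors.

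Lrp1b, a close relative of Lrp1, was the member found in the most nuclei, 3538 of 4008 in library A and 1894 of 2150 in library B. It had 7566 and 5417 CPM in precursors, 6623 and 5258 in oligodendrocytes, 4095 and 3507 in neurons, 3341 and 2368 in astrocytes, 1334 and 666 in tanycytes, and 1308 and 215 in microglia. Precursors and oligodendrocytes overlapped and lay above all other classes. Precursors exceeded the other classes' average by 1.72 (SE 0.35, adjusted p = 0.000246) and oligodendrocytes by 1.64 (SE 0.36, adjusted p = 0.000454). Tanycytes were lower, at -1.86 (SE 0.47, adjusted p = 0.00246), as were microglia, at -2.63 (SE 0.51, adjusted p = 0.000109).

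The order of Lrp1b broke at tanycytes. Astrocytes exceeded tanycytes by 1.82 (SE 0.54, adjusted p = 0.00894), a call lost under 3 of 13 alternatives, while precursors, oligodendrocytes, neurons and astrocytes were each not separated from the next (adjusted p = 0.956, 0.337 and 0.629). Of nuclei thinned to 500 UMIs, 98.5% and 91.7% of precursors held an Lrp1b UMI, 93% and 90.5% of oligodendrocytes, and 9.09% and 10.6% of microglia. The microglial value was -1.88 with library A alone and -4.32 with library B alone, beside the neuron markers at 7544 and 767 CPM. Lrp1 and Lrp1b thus stood apart in oligodendrocytes, where Lrp1 was lower and Lrp1b higher.

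Sorl1 had 116 and 338 CPM in astrocytes, 168 and 61.4 in microglia, 58.4 and 148 in tanycytes, 43.8 and 83.5 in oligodendrocytes, 44.4 and 69.5 in neurons, and 0 and 10.2 in precursors. In microglia Sorl1 was higher in library A, beside neuron markers at 7544 and 767 CPM. In every other class it was lower in library A, also in astrocytes, where the markers summed to 6499 and 675 CPM. Astrocytes overlapped microglia and tanycytes, and precursors lay below all other classes in both libraries. Astrocytes exceeded the other classes' average by 2.35 (SE 0.33, adjusted p = 6.45e-07). Precursors were lower, at -4.41 (SE 0.95, adjusted p = 0.000415), with 1 UMI in 207 nuclei, a ratio of 2.05% to astrocytes (exact 95% interval 0.0513% to 11.7%), and with -5.32 and -3.08 from library A and library B alone. Astrocytes and microglia were not separated (adjusted p = 0.0982), nor were microglia, tanycytes, oligodendrocytes and neurons from the next in order (adjusted p between 0.737 and 0.83).

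Pairs of classes gave 80 calls of 120 tests over the 8 members, where 29.6% of all tests over genes were called. Lrp1 and Apoe differed in 13 of 15 pairs each, Clu in 12, Vldlr in 11, Abca1 in 9, Lrp1b and Sorl1 in 8 each, and Lrp8 in 6. Fewer calls for a gene with few UMIs do not show that its classes are alike.

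Among neurons, the members split into even and uneven ones across 8 clusters with at least 20 nuclei in each library, and this is a description with no test. Mean levels of Lrp1 ran between 80.3 and 113 CPM, and those of Apoe between 19.1 and 32.8. Clu ran between 52.6 CPM in the cluster led by 9330185C12Rik, Vipr2 and Prok2 and 212 CPM in the cluster led by Slc32a1, Trh and Vstm2l. Lrp1b was 842 and 1157 CPM in libraries A and B in the first of these clusters, and 4725 and 3934 in the cluster led by Ebf2 and Lmx1a. The Vipr2 and Prok2 cluster was the lowest for Lrp1b in both libraries. It was among the highest for Abca1, with 29.2 and 30.7 CPM, from only 5 and 3 UMIs.

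Abca1 was also 30.4 and 24.5 CPM in the cluster led by Avp and Oxt, the hormones of the magnocellular neurons, from only 3 and 2 UMIs. It was 22.2 and 28.7 in that led by Hcrt, Gal and Cartpt, from 31 and 16 UMIs. In the other 5 neuron clusters it was at most 12 CPM in either library. Sorl1 ran between 16.3 and 79.8 CPM on average. It had 20.3 and 12.3 CPM in the Avp and Oxt cluster, from 2 UMIs in 29 nuclei and 1 UMI in 22, and 11.7 and 61.4 CPM in the Vipr2 and Prok2 cluster, so that the lowest cluster differed between the libraries.

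**Figure D5:**
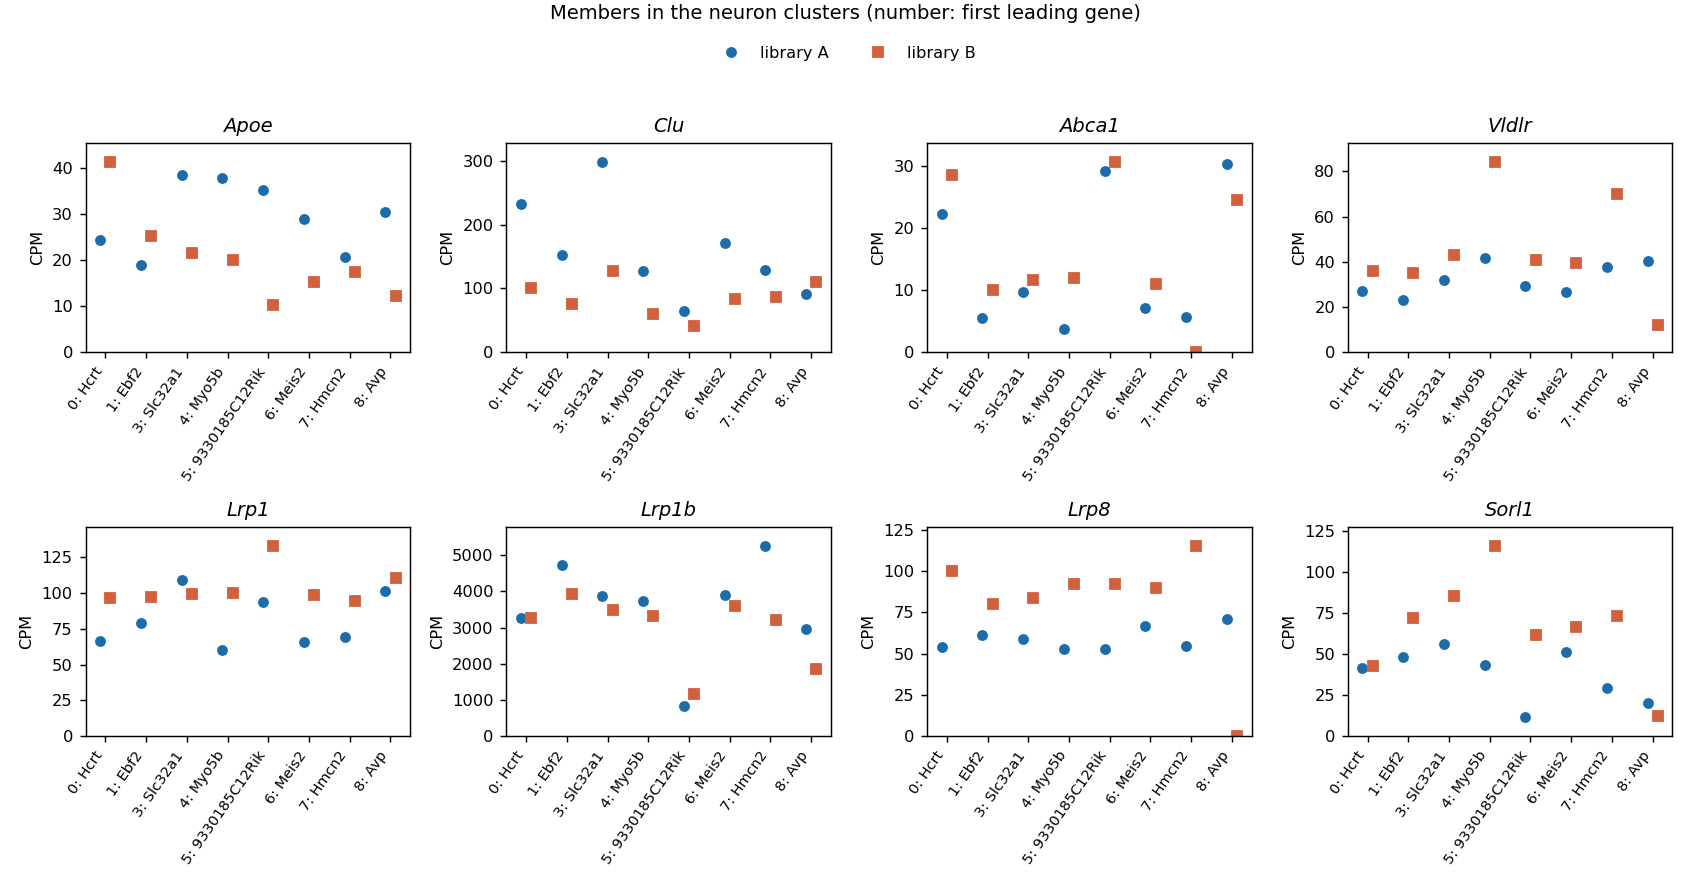
Level of 8 members (CPM) in the 8 neuron clusters, each named by its number and its first leading gene; circles are library A and squares library B. Lrp1b is lowest in cluster 5 (842 and 1157 CPM), and Abca1 is above 20 CPM in both libraries in clusters 0, 5 and 8. In clusters 5 and 8 the Abca1 values rest on at most 5 UMIs per library.

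Related genes were read from lists chosen by pathway. Members were not taken out of these lists, so that Apoe and Clu count among the apolipoproteins, Sorl1 in the sortilin family and Abca1 among the sterol transporters. Counts of a list that holds members thus repeat calls already given above. A gene could also pass the count filter through 1 class alone, as Apod did through oligodendrocytes and Mylip through microglia. A call of higher in that class is then not independent of the filter. Of the 19 listed apolipoproteins 4 were tested, and 2 of them, Apoe and Clu, were higher in astrocytes (18.7% of all genes). In the other classes 1 was higher in tanycytes (13% of all genes), 1 in precursors (16.7%), 1 in oligodendrocytes (18.5%) and 1 in neurons (27.1%). In microglia 2 were lower (9.75%), in oligodendrocytes 1 (15.6%) and in neurons 1 (13.2%). The other named apolipoproteins were Apod, a lipocalin carrier, with 503 and 608 CPM in oligodendrocytes and at most 10.2 CPM in every other class (higher in oligodendrocytes, adjusted p = 2.24e-18), and Apoo, a mitochondrial protein, with 61 and 61.6 CPM in neurons (higher, adjusted p = 1.69e-05). Apod and Clu thus stood on opposite sides in oligodendrocytes. Of 15 listed lipases and lipid transfer proteins 2 were tested, and neither was called by edgeR in any of the 6 contrasts. Of these 12 tests 1 had an unadjusted p under 0.05, and DESeq2 values are not given for them. With no low-count filter 14 were tested. There 2 were called higher in astrocytes, 2 in neurons, 1 in tanycytes and 1 in oligodendrocytes, and 1 was called lower in neurons. The share of all genes called at that setting was not computed.

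Of the 20 genes of the LDL receptor family list 12 were tested, and 4 were higher in precursors, 4 in oligodendrocytes, 3 in microglia, 2 in astrocytes, 2 in neurons and 0 in tanycytes, while 3 were lower in oligodendrocytes, 3 in neurons, 2 in tanycytes, 1 in astrocytes, 1 in microglia and 0 in precursors. Over all genes, 16.7% were higher in precursors, 18.5% in oligodendrocytes, 12.6% in microglia, 18.7% in astrocytes, 27.1% in neurons and 13% in tanycytes. Lower were 15.6% in oligodendrocytes, 13.2% in neurons, 4.52% in tanycytes, 4.74% in astrocytes, 9.75% in microglia and 3.66% in precursors. Mylip, the ubiquitin ligase that marks LDL receptors for degradation, had 285 and 399 CPM in microglia and at most 28.6 in every other class (higher in microglia, adjusted p = 2.17e-09). Lrp5, a Wnt co-receptor, had 101 and 276 CPM in microglia (higher, adjusted p = 1.14e-05). Lrp4, the agrin co-receptor, was lower in neurons, with 5.82 and 3.34 CPM (adjusted p = 3.51e-09).

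In the sortilin family, to which Sorl1 belongs, all 5 genes were tested, and 3 were higher and 2 lower in astrocytes (18.7% and 4.74% of all genes). In precursors 2 were higher and 2 lower (16.7% and 3.66% of all genes), and in oligodendrocytes 2 and 1 (18.5% and 15.6%). Neurons had 2 and 0 (27.1% and 13.2%), tanycytes 1 and 0 (13% and 4.52%), and microglia 0 and 1 (12.6% and 9.75%). Sorcs2 had 362 and 469 CPM in astrocytes (log2 difference 4.32, SE 0.27, adjusted p = 5.27e-15) and Sorcs1 had 85.3 and 0 CPM there (-3.06, SE 0.47, adjusted p = 3.36e-06). Sort1, the sortilin gene, was lower in precursors, as Sorl1 was, with 6.43 and 10.2 CPM (-3.72, SE 0.66, adjusted p = 3.15e-05).

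Of the 20 sterol transporters and LXR genes 11 were tested, and 5 were higher in oligodendrocytes, 4 in tanycytes, 2 each in astrocytes and microglia, and 1 each in precursors and neurons, while 4 were lower in neurons and 1 each in astrocytes, microglia and oligodendrocytes. Over all genes, 18.5% were higher in oligodendrocytes, 13% in tanycytes, 18.7% in astrocytes, 12.6% in microglia, 16.7% in precursors and 27.1% in neurons. Lower were 13.2% in neurons, 4.74% in astrocytes, 9.75% in microglia and 15.6% in oligodendrocytes. Abca8a had 387 and 450 CPM in oligodendrocytes (higher, adjusted p = 4.35e-16), and Abca9 had 352 and 491 CPM in microglia (higher, adjusted p = 8.47e-11). Abcg1, which exports cholesterol to mature particles, was lower in astrocytes, with 15.2 and 0 CPM (-3.00, SE 0.54, adjusted p = 3.86e-05), where Abca1 was higher.

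Of 10 scavenger receptor genes 3 were tested, and 1 was higher in microglia (12.6% of all genes), 1 higher in oligodendrocytes (18.5%) and 1 lower in neurons (13.2%). Tyrobp, the signalling adaptor of Trem2, was higher in microglia with 134 and 153 CPM (adjusted p = 2.45e-06), and Scarb2, a lysosomal protein, in oligodendrocytes with 87.5 and 186 CPM (1.24, SE 0.31, adjusted p = 0.0021). Of 11 Reelin pathway genes 8 were tested, and 3 were higher in neurons, 3 in precursors, and 2 each in astrocytes, microglia and oligodendrocytes, while 2 each were lower in microglia and oligodendrocytes. Over all genes, 27.1% were higher in neurons, 16.7% in precursors, 18.7% in astrocytes, 12.6% in microglia and 18.5% in oligodendrocytes. Lower were 9.75% in microglia and 15.6% in oligodendrocytes. Dab1, the adaptor that Vldlr and Lrp8 signal through, was lower in oligodendrocytes, with 18.2 and 37.1 CPM (-3.54, SE 0.56, adjusted p = 5.47e-06), although these had the highest Vldlr level, and it had 1244 and 1303 CPM in neurons. Dab2 was higher in astrocytes, with 88.3 and 109 CPM (adjusted p = 8.26e-07), and Fyn, a kinase of the pathway, was lower in microglia, with 50.3 and 0 CPM (-2.35, SE 0.71, adjusted p = 0.0112).

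The genes most alike to each member were ranked over 12 sums of class and library among 10814 genes, by Pearson's r of log2(CPM + 10), as a description, since these sums share libraries. For Apoe these were Tcf7l2 (r = 0.96) and Ptov1 (0.95), and for Clu Snrnp70 (0.95) and Gm48321 (0.94). For Abca1 they were Gnai2 and Lrmda (0.93 each), for Vldlr Adam19 (0.98) and Gfod1 (0.97), for Lrp1 Pid1 (0.94) and Rnf123 (0.92), and for Lrp1b Tmem117 (0.97) and Grik4 (0.96). For Lrp8 they were Dlg4 (0.95) and Wnk2 (0.94), and Stk40 (0.87) was among those for Sorl1. Lpl had too few UMIs to be ranked.

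Under the 2 labels, which share their nuclei, the members had nearly the same totals. Apoe had 1701 UMIs in the transplanted-labelled and 1718 in the control-labelled matrix of library A, and 966 and 988 in library B. Lrp1b had 36543 and 36495 in library A, and 17166 and 17432 in library B. Over the 8 members with at least 100 UMIs per matrix, the CPM ratio of the transplanted-labelled to the control-labelled matrix lay between 0.905 and 1.09, both ends being Abca1. Any effect of the transplant on these genes cannot be read from these matrices.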

How the data were processed

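The deposited values are raw UMI counts per gene and nucleus, per the file headers. Cell Ranger 5.0.1 and a human build appear in the submitters' processing notes, while the gene rows are mouse; no source used here gives the mouse build. A floor of 300 genes and a ceiling of 5% mitochondrial counts removed 0 nuclei. Scrublet in scanpy 1.11.5 called 5 and 25 doublets (0.125% and 1.16%) and so did not work in library A, where doublets in effect remain. Nuclei were clustered on 3000 variable genes and 40 principal components (leiden, resolution 1).

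A cluster took the class with most markers over 4-fold, at least 3 of them and 1 among its 10 leading genes; neurons needed 6 of 12 markers over 2-fold above glia. This naming rule was set after clusters had been seen. The members and lists were chosen with earlier results of these data known.

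Counts were summed per class and library and tested with edgeR 4.0.16 (TMM, filterByExpr, library as a term), with Benjamini-Hochberg adjustment at 0.05 over all genes and contrasts. The libraries enter as replicate blocks because all classes of 1 library come from 1 preparation. Whether the libraries are separate animals is not stated. The library term removes the difference that all classes of a library share. The p-values thus rest on how class differences varied between these 2 libraries, with the estimate of spread shared over classes and genes. That variation may be technical. Intervals and floors (3 counts) are 95% and cover counting error only. Up to 3 further genes per list were named by the largest log2 difference among those that passed, and 2 per member by likeness, of which 1 is not reported here. Alternatives included DESeq2 1.42.0, other scalings and filters, and the transplanted-labelled deposits. The tests were checked on simulated counts of the astrocyte contrast, where 41 of 100 genes changed 2-fold and 78 of 100 changed 4-fold were recovered. A difference that was not called may therefore have been missed. With TMM the median log2 difference over all genes was -0.21 in microglia, and 0.25 with library totals alone.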

Additional observations from a re-analysis of the deposited data

How the results depend on the processing

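The 16 higher and 10 lower calls of member and class, and the 80 calls between pairs of classes, were within 1.5 times of these counts under all alternatives except 1. Restricting to nuclei with at least 1000 UMIs left 11 and 1 microglia and gave 8 higher, 4 lower and 29 pair calls. Vldlr and Lrp8 could not be tested there, and the other 6 members had 12 higher, 9 lower and 63 pair calls with all nuclei. At that setting 2 called values turned: Abca1 in microglia against precursors to -0.37 and Lrp1 in microglia against neurons to -0.00052 (log2); fewer nuclei enter by construction, and no other cause was tested. With no replicate block the counts were 14, 8 and 61. Leaving out 1 library leaves no residual degrees of freedom, so those are differences of log2 CPM without a refit or a test, and counts could not be made. Counting the unnamed mixed cluster as oligodendrocytes was chosen after the clusters had been seen. Over the single members, 1935 of 2100 tested values kept their side of the threshold, 123 lost a call with the same direction, 40 gained one and 2 called values turned. A further 41 values, of 22 differences that were not called, changed sign. The share of all called genes that were higher moved with scaling: in microglia 56.4% with TMM, 76.6% with library totals and 65% with DESeq2; in astrocytes 79.8% and 68.8% with library totals; in neurons 67.2% and 55.1% with DESeq2. Depth limits Lpl, and Vldlr, Clu and Lrp8 in microglia.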
